A study of Mus musculus with 16 samples.

Results

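The statistical interaction between loss of Ing4 and loss of Ing5 was examined gene by gene in the hearts of mouse embryos at embryonic day 10.5, when the ventricles are growing inward and the epicardium is spreading over the heart. All 16 of the 16 sequenced hearts entered it, since the contrast needs each of the 4 genotypes, with 4 embryos each. Wild-type hearts were Ing4+/+ Ing5+/+. Ing4+/- hearts were Ing4+/- Ing5+/+ and had lost 1 allele of Ing4. Ing5-/- hearts were Ing4+/+ Ing5-/- and had lost both alleles of Ing5. Ing4+/- Ing5-/- hearts had lost both sets of alleles together, and no heart without any Ing4 allele was among the samples. No source used here gives the deleted exons, the kind of allele or the strain. Each library came from 1 embryonic heart per the labels, and the hearts came from 7 litters.

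ING4 and ING5 belong to a family of small nuclear proteins with a PHD finger, a domain that binds histone H3 methylated at lysine 4, a mark of active gene starts. They are known as subunits of the HBO1, MOZ and MORF complexes, which acetylate histones. Where related proteins stand in for each other, loss of both can have an effect that the sum of the single losses does not give, and the interaction measures that gap. It is the log2 difference between Ing4+/- Ing5-/- and Ing5-/- hearts minus the log2 difference between Ing4+/- and wild-type hearts. A value of 0 means that the effects of both genotypes add up on the log2 scale. A positive value means that Ing4+/- Ing5-/- hearts had more RNA of a gene than that sum, and a negative value that they had less.

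No gene had an interaction that passed the threshold in edgeR. Of 15785 genes tested, 0 were called higher and 0 lower at a Benjamini-Hochberg adjusted p under 0.05 (0% called), and the smallest adjusted p was 0.136. At an unadjusted p under 0.05 there were 952 genes (6.03%), 392 with a positive interaction (2.48%) and 560 with a negative one (3.55%), where 5% would pass if no gene interacted. DESeq2's Wald test called 7 genes on the same counts: Dpp6, Tnni2 and Gng5-ps with a positive interaction, and Barx1, Shisa3, Cdk2ap1 and Nrp2 with a negative one. limma-voom called 0 genes, and with a weight for the quality of each heart it called 1, Cdk2ap1 (adjusted p = 0.0129). The genes named below are therefore leading genes, ranked by p, and not a set of established changes.

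The promoters of 4 of those 7 genes are shown because the ING proteins are known to bind at gene starts and because RefSeq lists a single start for each of them. Each sequence is the 250 bases before that start on the strand of the gene (GRCm38.p6), 5′ to 3′, with CG dinucleotides in capitals. All 4 genes had a negative interaction.
Barx1: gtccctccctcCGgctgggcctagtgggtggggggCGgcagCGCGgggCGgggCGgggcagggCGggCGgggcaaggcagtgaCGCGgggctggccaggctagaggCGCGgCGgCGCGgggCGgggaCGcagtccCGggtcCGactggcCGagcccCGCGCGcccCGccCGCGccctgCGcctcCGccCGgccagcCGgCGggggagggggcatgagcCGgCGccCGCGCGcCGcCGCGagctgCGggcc
Shisa3: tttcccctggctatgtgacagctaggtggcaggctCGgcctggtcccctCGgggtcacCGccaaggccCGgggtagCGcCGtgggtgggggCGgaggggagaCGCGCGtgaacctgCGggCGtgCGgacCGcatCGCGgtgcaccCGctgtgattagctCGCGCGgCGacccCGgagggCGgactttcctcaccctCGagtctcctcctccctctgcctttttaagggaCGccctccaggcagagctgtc
Cdk2ap1: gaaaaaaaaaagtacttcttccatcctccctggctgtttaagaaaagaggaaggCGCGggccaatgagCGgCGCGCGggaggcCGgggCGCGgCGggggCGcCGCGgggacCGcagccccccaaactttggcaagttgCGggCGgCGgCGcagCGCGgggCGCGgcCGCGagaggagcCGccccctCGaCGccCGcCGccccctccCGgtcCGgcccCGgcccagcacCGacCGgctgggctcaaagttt
Nrp2: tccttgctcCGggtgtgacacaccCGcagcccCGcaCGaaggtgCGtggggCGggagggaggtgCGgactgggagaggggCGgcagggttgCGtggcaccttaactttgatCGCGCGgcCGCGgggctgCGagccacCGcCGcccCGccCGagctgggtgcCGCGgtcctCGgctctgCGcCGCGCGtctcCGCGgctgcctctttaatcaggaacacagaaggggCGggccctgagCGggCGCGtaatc
They lie at chr13:48662786-48663035 (plus strand, Barx1), chr5:67607633-67607882 (plus strand, Shisa3), chr5:124354629-124354878 (minus strand, Cdk2ap1) and chr1:62703067-62703316 (plus strand, Nrp2). The Barx1 promoter held 40 CG dinucleotides and was 85.6% G or C, and 98.7% of the 32851 RefSeq promoters of this length held fewer. The other 3 held 25 (Shisa3), 34 (Cdk2ap1) and 32 (Nrp2), against a median of 6 over all promoters, of which 92.1% held at least 1. Dpp6 has 3 listed starts, with 8, 6 and 10 CG dinucleotides before them, and Tnni2 and Gng5-ps had no entry in the promoter table. These are descriptions of the sequence, since binding and acetylation were not measured in these libraries.

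The libraries held 19753100 to 35664331 counted reads, and levels are given in CPM, the count of a gene scaled to the TMM-adjusted size of its library. Heart markers were high in every library, with Tnnt2, cardiac troponin T, at 1510 to 2670 CPM and Nkx2-5, a cardiac transcription factor, at 190 to 419 CPM. The endothelial marker Pecam1 lay between 94.2 and 187 CPM and the epicardial marker Wt1 between 48.5 and 150 CPM. On principal components, 3 hearts stood apart: Ing4+/- replicate 4 on the first (31.8% of the variance), Ing5-/- replicate 1 on the second (13.5%) and Ing4+/- Ing5-/- replicate 2 on the third (9.88%). On the second, wild-type replicate 2 lay nearly as far on the other side, at -43.4 against 50.0 for Ing5-/- replicate 1. It was not among the 3 and stayed in the fits without them. Ing5-/- replicate 1 had a summed level of 27 epicardial genes of 2861 CPM, against 1055 to 1483 CPM in the 15 other hearts. Ing4+/- Ing5-/- replicate 2 had the highest share of haemoglobin reads, 4.84% against 0.479% to 3.31%. No litter held all 4 genotypes, so no interaction can be computed within a litter, and litter and genotype are partly confounded. Wild-type embryos came from litters 4, 5 and 6, and Ing5-/- embryos from litters 1, 2 and 7, with no litter in common. Hearts with high Xist and almost no reads of Y-linked genes were found in each of the 4 genotypes.

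The targeted genes were read first. Ing5 stood at 35.1, 36.9, 28.9 and 33.2 CPM in wild-type replicates 1 to 4, and at 35.4, 37.2, 33.8 and 42.3 CPM in Ing4+/- hearts. Ing5-/- hearts had 29.3, 23.7, 18.5 and 22.4 CPM, and Ing4+/- Ing5-/- hearts had 19.8, 25.1, 19.9 and 19.2 CPM. Every Ing4+/- Ing5-/- heart lay below every wild-type heart, while Ing5-/- replicate 1 lay within the wild-type range. The interaction for Ing5 RNA was -0.31 ± 0.18 (SE; edgeR adjusted p = 0.842). Directly compared, Ing4+/- Ing5-/- hearts differed from Ing5-/- hearts in Ing5 RNA by -0.16 ± 0.13 (edgeR adjusted p = 0.841). Ing4 stood at 42.9, 28.2, 44.4 and 42.6 CPM in wild-type and at 36.3, 33.5, 32.0 and 34.8 CPM in Ing4+/- hearts. After loss of Ing5 alone the values were 60.7, 52.0, 47.8 and 43.5 CPM, and Ing4+/- Ing5-/- hearts had 35.7, 36.1, 32.5 and 32.9 CPM. Ing4 was thus lowest in the genotypes with 1 allele, apart from wild-type replicate 2, and highest on average in Ing5-/- hearts. Its interaction was -0.36 ± 0.17 (edgeR unadjusted p = 0.0504, adjusted p = 0.819).

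A list of 17 genes held the ING proteins, Ing4 and Ing5 themselves included, subunits of the HBO1, MOZ and MORF complexes, and the related acetyltransferases Kat5 and Kat8. Of these, 0 were called, and the median interaction was 0.0199 against -0.00759 over all genes tested. Brd1, a scaffold subunit, was the only one of the 17 with an unadjusted p under 0.05 (interaction 0.21, edgeR unadjusted p = 0.0101). Over all genes tested, 6.03% passed that threshold, so a single gene of 17 is near the share over all genes. Kat7, the catalytic subunit of the HBO1 complex, had an interaction of 0.05, and Kat6a, that of the MOZ complex, of 0.02. Kat6b, that of the MORF complex, had one of -0.23 (edgeR unadjusted p = 0.134). Among genes within 2 Mb of the targets, 0 of 47 near Ing4 and 0 of 27 near Ing5 were called. That count could only be 0, since edgeR called 0 of all genes tested. At an unadjusted p under 0.05 there were 3 of the 47 and 0 of the 27, against 6.03% of all genes tested.

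The genes that led on the positive side were mostly highest in hearts with both losses. Of 9 positive genes of smallest p, Ing4+/- Ing5-/- hearts stood above the other genotypes in 7, and Ing4+/- hearts stood below the others in 2. Of 10 negative ones, Ing4+/- Ing5-/- hearts stood below the others in 5 and wild-type hearts in 3. For the last 2, Cdk2ap1 and Adcy1, a single-loss genotype stood above. In 8 of the 19 genes all 4 hearts of the genotype that stood apart lay outside the range of the 12 other hearts. Over all genes tested that held for 1.3%: Ing4+/- Ing5-/- hearts lay above all others for 0.367% of genes and below them for 0.234%, Ing4+/- hearts below for 0.203% and wild-type hearts below for 0.127%. However, the 19 were chosen for their interaction in these hearts, so the count is a description.

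**Figure D1:**
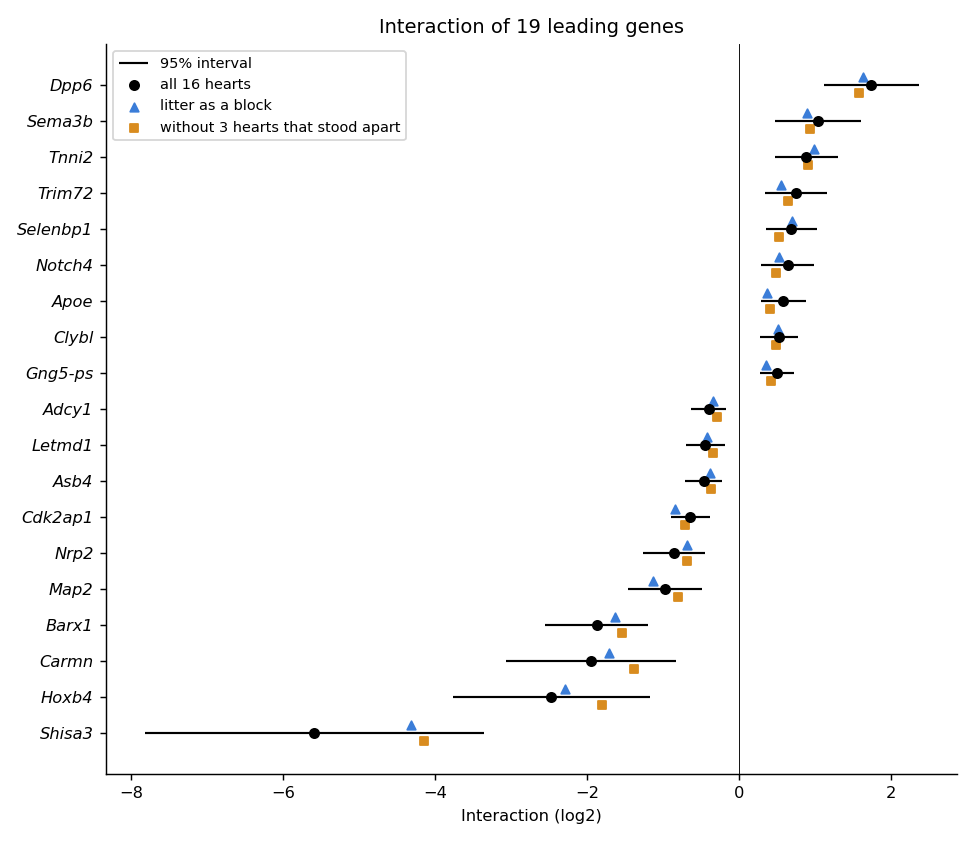
Interaction on the log2 scale for 19 leading genes, 9 positive and 10 negative. Black points show all 16 hearts with the 95% interval as a line, blue triangles a fit with litter as a block and orange squares a fit without the 3 hearts that stood apart; the sign was the same in all 3 fits, and Dpp6 at 1.74 and Shisa3 at -5.59 are the extremes.

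Dpp6, a partner protein of voltage-gated potassium channels, had the smallest p of all genes. It stood at 2.78, 2.31, 2.88 and 2.34 CPM in wild-type hearts and at 2.37, 2.42, 2.17 and 3.09 CPM in Ing4+/- hearts. In Ing5-/- hearts the level was 3.58, 3.63, 5.19 and 3.59 CPM, and Ing4+/- Ing5-/- hearts had 9.59, 18.9, 11.7 and 11.7 CPM. All 4 Ing4+/- Ing5-/- hearts lay above the 12 others, and the Ing4+/- hearts overlapped with wild-type. Against wild-type the difference was -0.04 ± 0.22 for Ing4+/-, 0.63 ± 0.21 for Ing5-/- and 2.33 ± 0.21 for Ing4+/- Ing5-/- hearts, of which only the last passed (edgeR adjusted p = 3.21e-05). The interaction was 1.74 ± 0.30 (95% interval 1.12 to 2.36, edgeR unadjusted p = 1.45e-05, adjusted p = 0.136; DESeq2 adjusted p = 0.000401). It ranged from 1.51 to 1.89 when each heart was left out in turn, and was 1.57 without the 3 hearts that stood apart. Dpp6 was also the 1 gene (0.00634%) that edgeR called between Ing4+/- Ing5-/- and Ing5-/- hearts, where it rose by 1.70 ± 0.20 (adjusted p = 0.00197). It lies on chromosome 5 from 26817357 to 27727500 (GRCm38).

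Tnni2, troponin I of fast skeletal muscle, followed the same order of genotypes. It stood at 27.0, 36.2, 24.6 and 26.8 CPM in wild-type hearts and at 24.7, 23.9, 26.2 and 27.8 CPM in Ing4+/- hearts. Ing5-/- hearts had 40.9, 44.9, 54.8 and 32.7 CPM, and Ing4+/- Ing5-/- hearts had 80.2, 69.5, 74.9 and 60.6 CPM. The Ing4+/- Ing5-/- hearts lay above all others and the Ing5-/- hearts in between, with 1 of them inside the wild-type range. The interaction was 0.88 ± 0.20 (edgeR unadjusted p = 0.000278, adjusted p = 0.642; DESeq2 adjusted p = 0.0339). Selenbp1, a selenium-binding enzyme that breaks down methanethiol, stood at 17.5 to 19.9 CPM in wild-type hearts, 16.7 to 18.8 CPM with the Ing4 loss alone, 18.6 to 24.1 CPM with the Ing5 loss alone and 28.0 to 41.0 CPM with both. Its interaction of 0.69 ± 0.16 had an edgeR adjusted p of 0.736. Selenbp1 and Tnni2 both rose in Ing4+/- Ing5-/- hearts against wild-type, by 0.83 ± 0.11 and 1.31 ± 0.14 (edgeR adjusted p = 0.00129 and 0.000125).

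A second form of positive interaction combined a lower value in Ing4+/- hearts with a higher value in Ing4+/- Ing5-/- hearts. Apoe, the lipid carrier apolipoprotein E, stood at 161, 194, 196 and 165 CPM in wild-type and at 156, 162, 164 and 128 CPM in Ing4+/- hearts. After loss of Ing5 alone the values were 162, 195, 224 and 191 CPM, and Ing4+/- Ing5-/- hearts had 225, 258, 247 and 252 CPM. The Ing4+/- Ing5-/- hearts lay above the 12 others by a small margin, since Ing5-/- replicate 3 reached 224 CPM. Apoe rose in Ing4+/- Ing5-/- hearts against wild-type by 0.46 ± 0.10 (edgeR adjusted p = 0.0383), and the interaction was 0.58 ± 0.14 (adjusted p = 0.792). Notch4, a Notch receptor of endothelial cells, stood at 22 to 24.4 CPM in wild-type hearts, 20 to 23.0 CPM with the Ing4 loss alone, 19.4 to 26.5 CPM with the Ing5 loss alone and 26.4 to 38.8 CPM with both, with an interaction of 0.64 ± 0.16 (edgeR adjusted p = 0.819). In whole hearts, more cells of a type and more RNA per cell cannot be told apart. Clybl, a mitochondrial lyase, had an interaction of 0.53 ± 0.12, and its 4 Ing4+/- Ing5-/- values of 44.9 to 47.8 CPM lay above all others, which ran from 30.6 to 41.9 CPM. Trim72, a membrane repair protein of striated muscle, had an interaction of 0.75 ± 0.19.

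Sema3b, a secreted guidance factor, differed in that Ing4+/- hearts, the lowest on average, were the genotype that stood apart. It stood at 12.5, 17.3, 9.18 and 15.3 CPM in wild-type and at 10.8, 10.6, 9.54 and 6.45 CPM in Ing4+/- hearts. In Ing5-/- hearts the level was 12.6, 15.7, 10.9 and 10.4 CPM, and Ing4+/- Ing5-/- hearts had 15.2, 16.3, 20.2 and 18.4 CPM. All Ing4+/- hearts lay below all Ing4+/- Ing5-/- hearts and overlapped with the other genotypes. The difference between Ing4+/- and wild-type hearts was -0.54 ± 0.19 (edgeR unadjusted p = 0.0123) and that between Ing4+/- Ing5-/- and Ing5-/- hearts was 0.50 ± 0.19 (edgeR unadjusted p = 0.0165). The interaction was 1.04 ± 0.27 (edgeR adjusted p = 0.819). The transcribed pseudogene Gng5-ps had an interaction of 0.50 ± 0.11, but its reads may be shared with its parent gene, so its value is uncertain.

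**Figure D2:**
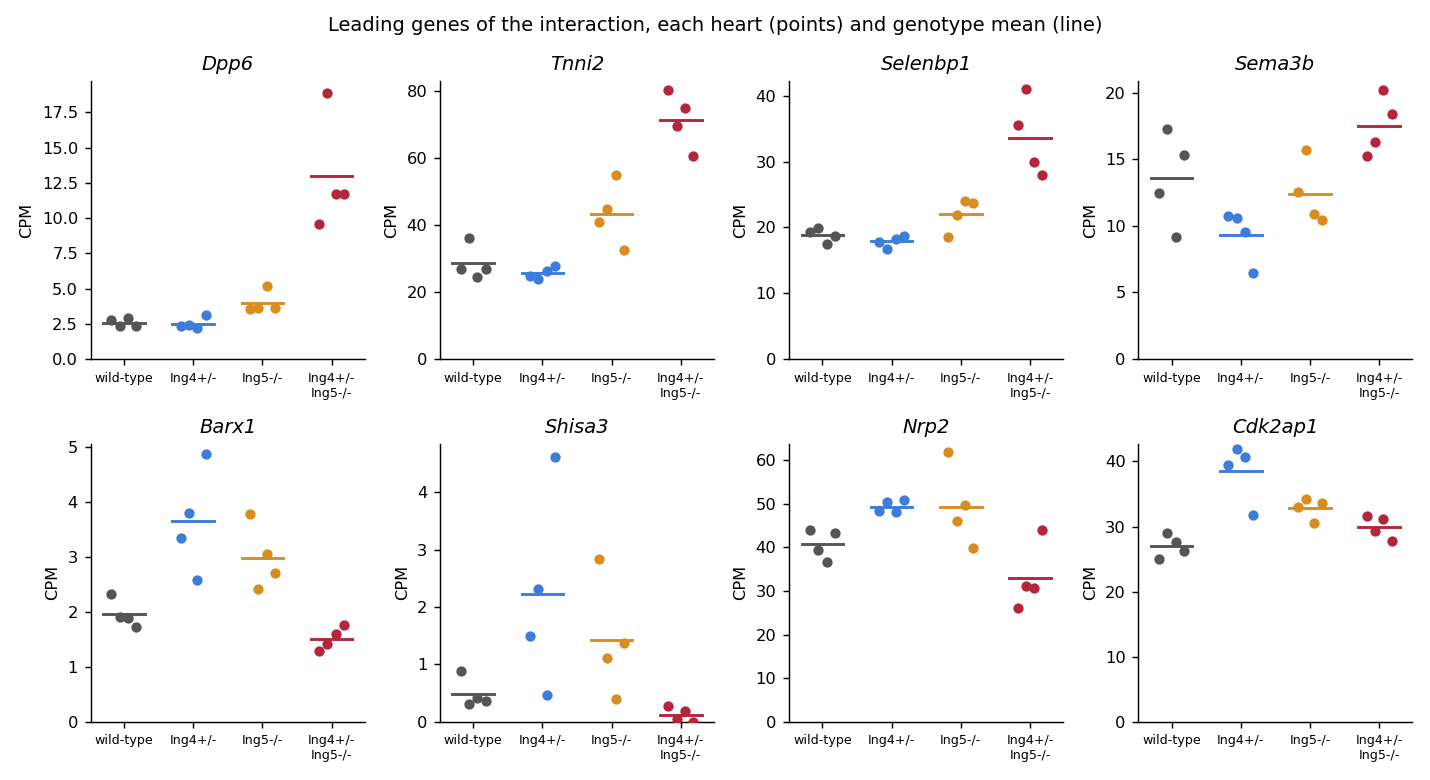
CPM of 8 leading genes, with 1 point per heart and a line at the mean of each genotype of 4 hearts. Dpp6, Tnni2 and Selenbp1 are highest in Ing4+/- Ing5-/- hearts, Sema3b is lowest on average in Ing4+/- hearts, and Barx1, Shisa3 and Nrp2 are higher in both single-loss genotypes than in wild-type or Ing4+/- Ing5-/- hearts on average.

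The genes that led on the negative side included several that were higher after either single loss and not after both. Barx1, a homeobox transcription factor of the stomach and jaw mesenchyme, stood at 2.32, 1.90, 1.90 and 1.73 CPM in wild-type and at 3.35, 3.80, 2.58 and 4.88 CPM in Ing4+/- hearts. Ing5-/- hearts had 3.77, 2.42, 3.05 and 2.70 CPM, and Ing4+/- Ing5-/- hearts had 1.29, 1.41, 1.6 and 1.75 CPM. Every heart with a single loss lay above every wild-type heart and every heart with both losses. The differences from wild-type were 0.89 ± 0.23 for Ing4+/-, 0.61 ± 0.23 for Ing5-/- and -0.38 ± 0.24 for Ing4+/- Ing5-/- hearts, none of which passed in edgeR. The interaction was -1.88 ± 0.32 (95% interval -2.56 to -1.20, edgeR unadjusted p = 1.73e-05, adjusted p = 0.136; DESeq2 adjusted p = 0.000525). Leaving out each heart in turn gave -2.01 to -1.71.

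Shisa3, of a family that holds back WNT and FGF receptors, had the same form at a low level. It stood at 0.881, 0.311, 0.417 and 0.356 CPM in wild-type and at 1.5, 2.31, 0.458 and 4.62 CPM in Ing4+/- hearts. After loss of Ing5 alone the values were 2.83, 1.12, 0.397 and 1.38 CPM, and Ing4+/- Ing5-/- hearts had 0.271, 0.0415, 0.186 and 0 CPM. The 4 Ing4+/- Ing5-/- hearts lay below the 12 others, and the single-loss hearts overlapped with wild-type. The fitted interaction was -5.59 ± 1.06 (edgeR adjusted p = 0.232; DESeq2 adjusted p = 0.000242), and it was -4.14 without the 3 hearts that stood apart. Its size rests on a handful of reads in hearts with both losses.

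Nrp2, a coreceptor for class 3 semaphorins and VEGF-C, stood at 43.9, 39.5, 36.6 and 43.3 CPM in wild-type and at 48.3, 50.4, 48.0 and 50.8 CPM in Ing4+/- hearts. In Ing5-/- hearts the level was 62.0, 46.0, 49.8 and 39.8 CPM, and Ing4+/- Ing5-/- hearts had 26.2, 31.2, 30.6 and 44.0 CPM. All Ing4+/- hearts lay above wild-type and 3 of 4 Ing4+/- Ing5-/- hearts below it, with the other one at the wild-type top. The interaction was -0.86 ± 0.19 (edgeR adjusted p = 0.656; DESeq2 adjusted p = 0.0456). Map2, a microtubule-binding protein known from neurons, ran from 3.34 to 4.10 CPM in Ing4+/- Ing5-/- hearts, below the 12 others at 4.18 to 8.07 CPM, with an interaction of -0.97 ± 0.23. Asb4, a subunit of ubiquitin ligases of the vascular lineage, had an interaction of -0.46 ± 0.12, with 83.8 to 108 CPM in Ing4+/- Ing5-/- and 120.2 to 139.6 CPM in Ing4+/- hearts.

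Cdk2ap1, a CDK2-binding protein of the NuRD chromatin complex, was less than additive. It stood at 25.0, 29.1, 27.7 and 26.3 CPM in wild-type and at 39.5, 41.9, 40.7 and 31.8 CPM in Ing4+/- hearts. Ing5-/- hearts had 33.0, 34.2, 30.5 and 33.7 CPM, and Ing4+/- Ing5-/- hearts had 31.6, 29.3, 31.2 and 27.8 CPM. Replicates 1 to 3 of the Ing4+/- hearts lay above all other hearts, and replicate 4, which stood apart on the first principal component, was the exception. The interaction was -0.64 ± 0.12 (edgeR unadjusted p = 5.87e-05, adjusted p = 0.232), and without that heart it was -0.72 (adjusted p = 0.0356), the only call made when a heart was left out. Adcy1, a calcium-stimulated adenylate cyclase, was highest on average in Ing5-/- hearts, at 67.9 to 83.7 CPM against 55.1 to 65.8 CPM in wild-type, with an interaction of -0.40 ± 0.11. Letmd1, a mitochondrial membrane protein, was lowest in wild-type hearts, at 19.3 to 21.8 CPM against 22.1 to 28.8 CPM in the 12 others, with an interaction of -0.45 ± 0.12. Carmn, the host transcript of the smooth muscle microRNAs miR-143 and miR-145, had an interaction of -1.95 ± 0.53, and -1.33 without Ing5-/- replicate 1, which had 7.19 CPM against 1.75 to 3.16 CPM in its group.

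Among genes that changed in hearts with both losses, most had values that fitted the sum of the single differences within error. edgeR called 133 genes between Ing4+/- Ing5-/- and wild-type hearts (0.843%), 108 higher (0.684%) and 25 lower (0.158%). A gene was counted as additive within error where the 95% interval of its interaction held 0. That was so for 91 of the 133 (68.4%) and for 94% of all genes tested. Another 35 of the 133 were more than additive (26.3%, against 0.393% of all genes). There the combined change had the sign of the sum of the single differences, and the interaction had that sign too. Less than additive were 2 (1.5%; 1.98% of all genes). Another 5 were opposite (3.76%; 3.66% of all genes), meaning that the combined change had the sign opposite to the sum of the single differences. The combined difference enters both the call and the interaction, so the larger share of more than additive genes among the 133 is a description. Opposite values mean little where the sum of the single differences is small. That sum was -0.1215 for Apoe, -0.0871 for Notch4 and -0.001425 for Trappc6a.

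The intervals of genes that were additive within error differed in width. Cacna1s, the calcium channel of skeletal muscle, stood at 4.82 to 5.50 CPM in wild-type hearts, 4.18 to 5.22 CPM with the Ing4 loss alone, 7.01 to 13.3 CPM with the Ing5 loss alone and 7.80 to 10.4 CPM with both. Its single difference after loss of Ing5 was 0.87 ± 0.18 and its combined rise 0.80 ± 0.18 (edgeR adjusted p = 0.0416), with an interaction of -0.02 ± 0.25 and a 95% interval from -0.55 to 0.51. Eno2, an enolase of glycolysis, had a combined rise of 0.86 ± 0.17 (adjusted p = 0.0231) and an interaction of 0.09 ± 0.24. Spi1, the transcription factor PU.1 of white blood cells, and F13a1, a coagulation factor of macrophages, rose by 2.20 ± 0.45 and 2.77 ± 0.50 (adjusted p = 0.0249 and 0.013). Their interactions, 0.14 ± 0.63 and 0.10 ± 0.69, had 95% intervals from -1.19 to 1.47 and from -1.35 to 1.55, which leave room for gaps of either sign.

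Genes beyond the sum, besides Dpp6, Tnni2 and Selenbp1, included Igfbp3, which binds insulin-like growth factors. It stood at 23.4, 28.0, 25.8 and 25.6 CPM in wild-type and at 25.2, 23.1, 22.1 and 16.4 CPM in Ing4+/- hearts. After loss of Ing5 alone the values were 42.1, 34.7, 46.9 and 25.2 CPM, and Ing4+/- Ing5-/- hearts had 47.8, 61.7, 47.9 and 65.1 CPM. All Ing4+/- Ing5-/- hearts lay above the 12 others, the nearest being Ing5-/- replicate 3. Igfbp3 rose by 1.11 ± 0.17 against wild-type (edgeR adjusted p = 0.00271), and its interaction was 0.82 ± 0.23 (adjusted p = 0.819). Serpinb6b, a protease inhibitor, stood at 19.8 to 26.2 CPM in wild-type hearts, 21.5 to 25.4 CPM with the Ing4 loss alone, 27.1 to 32.0 CPM with the Ing5 loss alone and 34.8 to 44.2 CPM with both. Its combined rise was 0.78 ± 0.10 (adjusted p = 0.000859) and its interaction 0.52 ± 0.14 (adjusted p = 0.819). Trappc6a, of a vesicle tethering complex, had an interaction of 0.44, and its Ing4+/- Ing5-/- hearts at 32.1 to 36.7 CPM lay above the others at 19.6 to 31.7 CPM. It was counted as opposite, but its single differences of -0.16 for Ing4+/- and 0.16 for Ing5-/- hearts nearly cancelled.

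A reversal was counted where the effect of a genotype had opposite signs on the 2 backgrounds, each with an unadjusted p under 0.05. The effect of 1 lost Ing4 allele reversed with the Ing5 genotype for 22 of 15785 genes (0.139%), and the effect of Ing5 loss reversed with the Ing4 genotype for 17 (0.108%). Some genes meet both thresholds by chance, and the counts were not compared with that share. They are a description and do not establish a reversal for any gene. Genes in both sets included Barx1, Shisa3, Gng5-ps, Hoxb4, Hoxa3 and Arhgap28. Slc39a10, a zinc importer, stood at 117 to 130 CPM in wild-type hearts, 128 to 159 CPM with the Ing4 loss alone, 122 to 152 CPM with the Ing5 loss alone and 106 to 135 CPM with both, so its Ing4 effect was upward with Ing5 and downward without it, with overlap between all groups. Ric3, a chaperone of acetylcholine receptors, ran from 2.42 to 4.41 CPM in wild-type hearts, 3.96 to 5.92 CPM with the Ing4 loss alone, 3.41 to 4.28 CPM with the Ing5 loss alone and 1.93 to 3.05 CPM with both. Arhgap28, which encodes a GTPase-activating protein, met the rule for both effects. It had 53.3 to 59.5 CPM in wild-type and 58.3 to 75.4 CPM in Ing5-/- hearts. Ing4+/- hearts had 60.4 to 69.9 CPM and Ing4+/- Ing5-/- hearts 51.6 to 63.2 CPM. No gene of either set was called for the interaction in edgeR.

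Loss of Ing5 was then compared on both Ing4 backgrounds, since those 2 contrasts use separate hearts. Their litters are not separate. Litters 1 and 7 gave hearts without Ing5 to both contrasts, and litters 4 and 6 gave hearts with Ing5 to both. The part of litter in shared signs was not tested. Against Ing4+/- hearts, Ing4+/- Ing5-/- hearts had 173 genes called (1.1%), 114 higher (0.722%) and 59 lower (0.374%). Against wild-type hearts, Ing5-/- hearts had 0 called in edgeR, with 1542 at an unadjusted p under 0.05 (9.77%). Of the 173, 164 had the same sign with 2 Ing4 alleles (94.8%), against 60.1% of all genes, and 87 of those had an unadjusted p under 0.05 there. The 114 higher genes had a median of 0.857 with 1 Ing4 allele and 0.355 with 2, and the 59 lower genes medians of -0.601 and -0.208. The values with 1 Ing4 allele chose these genes, so that they were larger there is not a result. Across all 15785 genes the 2 effects of Ing5 loss had a Pearson correlation of 0.361 and a Spearman correlation of 0.266, over genes that share libraries and are not independent. The 2 effects of losing 1 Ing4 allele, with and without Ing5, had a Pearson correlation of -0.0799, and 49.4% of genes had the same sign. Ing4+/- hearts had 0 genes called against wild-type (748 at an unadjusted p under 0.05, 4.74%).

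Ing5-/- replicate 1 affected these counts. Without it, 419 genes were called with 1 Ing4 allele, and 384 of them had the same sign with 2 (91.6%; 63.4% of all genes). Without the 3 hearts that stood apart, 183 were called and 177 had the same sign (96.7%; 61.8% of all genes). With all hearts, 9 of the 173 had opposite signs on the 2 backgrounds: Barx1, Shisa3, Nrp2, Tenm4 and Flrt3, lower with 1 Ing4 allele, and Clybl, Sema3b, Atf5 and Fgf11, higher. They are named because the count is small, after their values were seen. Only Barx1 and Shisa3 of the 9 had an unadjusted p under 0.05 on the wild-type Ing4 background. Atf5, a transcription factor of the stress response, averaged 31.6 CPM in wild-type hearts, 28.5 CPM with the Ing4 loss alone, 30.9 CPM with the Ing5 loss alone and 55 CPM with both. Tenm4, a large cell-surface protein, averaged 31.6, 33.4, 33.4 and 21.2 CPM in the same order.

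**Figure D3:**
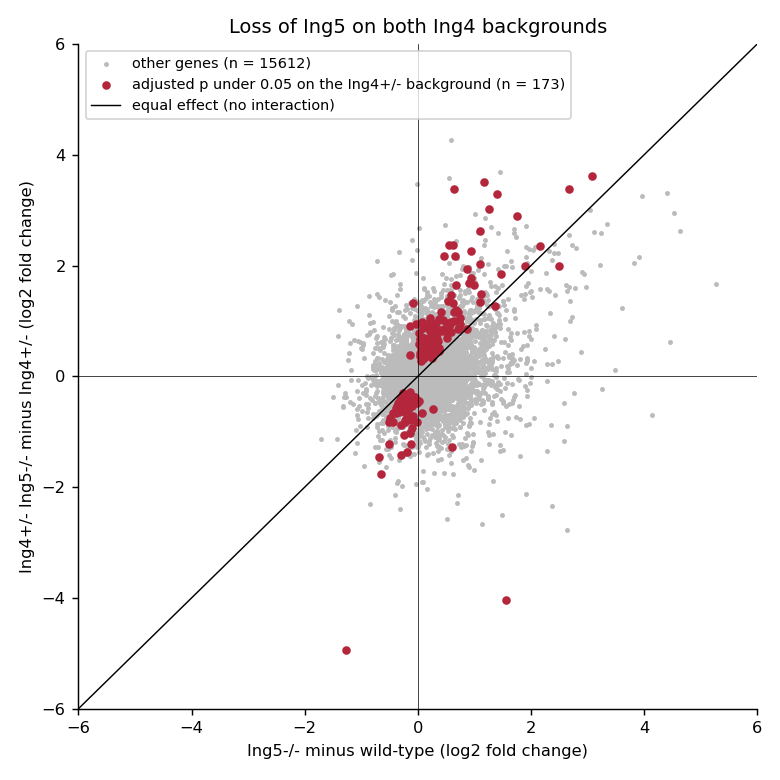
Log2 difference after loss of Ing5 in hearts with 2 Ing4 alleles (horizontal axis) and with 1 (vertical axis), 1 point per gene, with 4 genes beyond the axis limits of 6 not drawn. Red points are the 173 genes called with 1 Ing4 allele, and the diagonal marks no interaction; most red points share a sign on both axes and lie farther from 0 on the vertical axis, where they were chosen.

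Gene groups were described by the counts and medians of lists. In all 34 lists 0 members were called for the interaction, and over all genes 48.4% of interactions were positive. The Hox genes, which pattern the body axis and mark posterior mesoderm, had the lowest median. All 8 of the 8 members tested, of 24 listed, had a negative interaction, with a median of -2.63. Of these, 6 had an unadjusted p under 0.05, against 3.55% of all genes with a negative interaction at that threshold. The 16 others did not pass the filter on low counts. A low gene can pass that filter through its single-loss hearts alone, and that choice favours a negative interaction. Hoxa3 averaged 0.271 CPM with no loss and 0.315 CPM with both. Its averages were 1.38 CPM after the Ing4 loss alone and 1.06 CPM after the Ing5 loss alone. Hoxb3 and Hoxb2, with means of 5.13 and 6.26 CPM over all hearts, had interactions of -1.42 and -0.568. The part of the filter in the shared sign and the median was not tested. Hoxb4 stood at 1.30, 0.725, 1.55 and 0.458 CPM in wild-type and at 2.33, 2.97, 1.08 and 3.01 CPM in Ing4+/- hearts. In Ing5-/- hearts the level was 4.13, 1.47, 2.50 and 1.61 CPM, and Ing4+/- Ing5-/- hearts had 0.712, 0.706, 1.08 and 1.54 CPM. The groups overlapped, and Ing5-/- replicate 1 was the highest heart. The interaction of Hoxb4 was -2.47 ± 0.61 (edgeR adjusted p = 0.792), and -2.08 without that heart.

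Hoxa5 had 8 CPM in Ing5-/- replicate 1 and 0.317 to 1.18 CPM in the 3 other Ing5-/- hearts, and its interaction went from -4.71 to -2.75 without replicate 1. Hoxa3, with 0.71 to 3.01 CPM in Ing4+/- and 0 to 0.38 CPM in wild-type hearts, had an interaction of -4.03 ± 1.05. The summed level of the 8 genes was 10.9 to 15.4 CPM in wild-type hearts, 14.3 to 23.6 CPM with the Ing4 loss alone, 14.5 to 48.1 CPM with the Ing5 loss alone and 10.9 to 16.7 CPM with both. All but 1 of the Ing4+/- hearts and all but 1 of the Ing5-/- hearts therefore lay above all wild-type hearts. The list median was -2.39 without Ing5-/- replicate 1, -2.24 without the 3 hearts that stood apart and -2.89 with litter as a block.

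Epicardial genes depended on a single heart. Of 27 genes of the epicardium and related mesothelium, 23 had a negative interaction, with a median of -0.588, but without Ing5-/- replicate 1, whose summed level stood far above the others, the median was -0.0456. Itga4, an integrin subunit that attaches the epicardium to the heart, stood at 136, 118, 123 and 114 CPM in wild-type and at 129, 123, 104 and 143 CPM in Ing4+/- hearts. Ing5-/- hearts had 225, 107, 139 and 104 CPM, and Ing4+/- Ing5-/- hearts had 76.3, 72.8, 67.1 and 92.4 CPM. The Ing4+/- Ing5-/- hearts lay below the 12 others. Its interaction was -0.92 ± 0.26 (edgeR unadjusted p = 0.00236, adjusted p = 0.819), and -0.62 without Ing5-/- replicate 1. Krt19, a keratin of epithelia and the epicardium, went the other way, with 37.1 to 46.2 CPM in Ing4+/- and 69.2 to 87.4 CPM in Ing4+/- Ing5-/- hearts and an interaction of 0.57 ± 0.17. Genes of the proepicardium and septum transversum, the source of the epicardium, had a median of -0.417 over 18 members, and -0.197 without Ing5-/- replicate 1.

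Genes known to respond to low oxygen, with those of glycolysis, were mostly positive. Of 30 members tested, 27 had a positive interaction, with a median of 0.252. Of these, 6 had an unadjusted p under 0.05, against 2.48% of all genes with a positive interaction at that threshold. Ndufa4l2, which low oxygen is known to induce in mitochondria, stood at 1.53, 3.59, 1.21 and 1.88 CPM in wild-type and at 1.73, 1.16, 1.5 and 3.62 CPM in Ing4+/- hearts. After loss of Ing5 alone the values were 3.22, 5.71, 8.09 and 3.04 CPM, and Ing4+/- Ing5-/- hearts had 13.0, 21.3, 11.5 and 18.9 CPM. The Ing4+/- Ing5-/- hearts lay above the 12 others, and its interaction was 1.76 ± 0.55 (edgeR adjusted p = 0.819). Egln3, a prolyl hydroxylase that senses oxygen, ran from 10.2 to 13.5 CPM in wild-type hearts, 10.3 to 13.1 CPM with the Ing4 loss alone, 16.4 to 25.5 CPM with the Ing5 loss alone and 23.6 to 30.9 CPM with both. Its interaction was 0.51 ± 0.20. The other members of the 6 were the enzymes Gapdh, Aldoa, Pkm and Pfkl, with interactions of 0.30, 0.44, 0.38 and 0.39. Among further enzymes, Eno1 and Pgam1 were at 0.0138 and 0.0352. The 3 negative members were Adm (-0.405), Car9 (-0.302) and Ankrd37 (-0.208). The list median was 0.139 without Ing5-/- replicate 1, which had the lowest summed level of all hearts, 9091 CPM. It was 0.412 without Ing5-/- replicate 3, which had the highest, 16540 CPM. The 4 Ing4+/- Ing5-/- hearts, at 13500 to 15670 CPM, lay above all wild-type and Ing4+/- hearts, at 10160 to 11830 CPM, and inside the Ing5-/- range.

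Endothelial and endocardial genes had a median of 0.319, with 19 of 23 positive. Sox18, a transcription factor of vessels, stood at 17.5 to 23.8 CPM in wild-type hearts, 13.7 to 19.5 CPM with the Ing4 loss alone, 16.2 to 25.2 CPM with the Ing5 loss alone and 27.2 to 37.1 CPM with both. Its Ing4+/- Ing5-/- hearts lay above the 12 others, and the interaction was 0.77 ± 0.21 (edgeR adjusted p = 0.819), and 0.59 without the 3 hearts that stood apart. The list median was 0.214 without Ing5-/- replicate 1, which had the lowest summed level of endothelial genes, 1477 CPM against 1768 to 2342 CPM in the 15 others. Contractile and calcium-handling genes of cardiomyocytes had a median of 0.178, with 22 of 26 positive, and 0.0531 without Ing5-/- replicate 1.

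Macrophage genes were higher in sum in all 4 Ing4+/- Ing5-/- hearts than in any wild-type or Ing4+/- heart. Macrophage and other white blood cell genes had summed levels of 35.6 to 50.6 CPM in wild-type, 44.0 to 51.5 in Ing4+/- and 70.1 to 106.6 in Ing4+/- Ing5-/- hearts. The Ing5-/- hearts split, with 105.5 and 96.2 CPM in the 2 embryos of litter 1 and 43.2 and 43.7 CPM in those of litters 2 and 7. The median interaction of the 18 genes was -0.43, and it ran from -0.646 without Ing5-/- replicate 3 to -0.00234 without Ing5-/- replicate 1. All 16 erythroid genes had a positive interaction, with a median of 0.662 and no unadjusted p under 0.05. That median was 0.0066 without Ing4+/- Ing5-/- replicate 2, whose summed erythroid level was 51300 CPM against 5336 to 35010 CPM in the others, 1.64 without Ing5-/- replicate 4 and -0.361 with litter as a block. The part of blood content in other results was not tested beyond the fit with the haemoglobin level as a covariate, which called 0 genes.

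**Figure D4:**
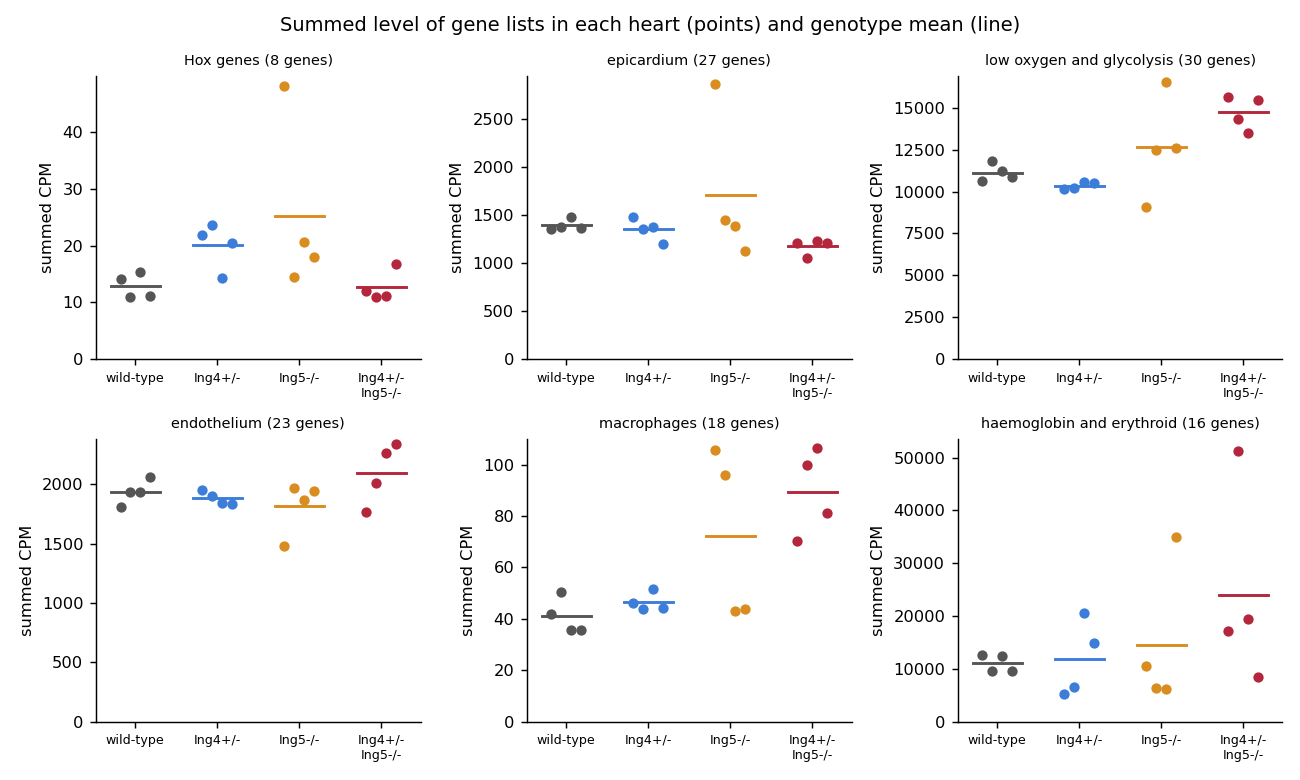
Summed CPM of 6 gene lists in each heart (points), with a line at the mean of each genotype of 4 hearts. Ing5-/- replicate 1 is the highest point for Hox genes (48.1 CPM) and for the epicardium (2861 CPM), and Ing4+/- Ing5-/- replicate 2 for haemoglobin and erythroid genes (51300 CPM).

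The other lists had medians from -0.364 to 0.362, apart from the sex-linked list at -0.653, which has 5 members tested and ran from -1.34 to -0.227 when each heart was left out. Leaving out single hearts moved the median by over 1.5 times or turned its sign for 32 of the 34 lists, all but the Hox and endothelial lists, and the sign itself turned for 11. Germline genes stood at 0.362, but at 0.000395 without wild-type replicate 1. Interferon response and MHC genes stood at 0.33 (0.522 without Ing5-/- replicate 2). Skeletal and pharyngeal muscle was at 0.246 (0.0788 without Ing4+/- replicate 4). Trabecular myocardium was at 0.189 (0.0543 without Ing5-/- replicate 1). Immediate early genes were at 0.119 and extracellular matrix at 0.102, and ran from 0.0411 to 0.196 and from 0.0515 to 0.196 over the hearts left out. Platelet and megakaryocyte genes stood at 0.0878, and at 0.71 without Ing5-/- replicate 1 and -0.0751 without Ing5-/- replicate 3. The smaller positive medians were oxidative phosphorylation at 0.0701, p53 targets at 0.0456, mural cells at 0.0383, heat shock and the unfolded protein response at 0.0365, DNA replication at 0.0266 and mitosis at 0.0166. Atrial and inflow genes stood at -0.364, and ran from -0.601 without Ing5-/- replicate 2 to -0.196 without Ing5-/- replicate 1. Endoderm and liver bud genes stood at -0.323, but at 0.0198 without Ing5-/- replicate 1. Outflow tract genes were at -0.153 (-0.443 without Ing5-/- replicate 1, -0.014 without Ing5-/- replicate 3) and retinoic acid genes at -0.129 (-0.0437 without Ing4+/- replicate 2, -0.29 without Ing4+/- Ing5-/- replicate 4). Signalling genes were at -0.104 (-0.0213 without Ing5-/- replicate 1) and ribosomal proteins at -0.102 (-0.0417 without Ing4+/- Ing5-/- replicate 4). Imprinted genes stood at -0.0734, neural genes at -0.0553, sterol and fatty acid synthesis at -0.0318, cushion mesenchyme at -0.0224 and compact myocardium at -0.0171. No direction is read from these smaller medians. Of 22 imprinted genes, 5 had a negative interaction with an unadjusted p under 0.05, against 3.55% of all genes. A positive one at that threshold was seen for 0, against 2.48% of all genes. Peg10, a gene of retroviral origin needed in the placenta, was among the 5, at -0.72 (edgeR unadjusted p = 0.00358). Members of a list share hearts and are not independent, so such counts are a description.

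**Figure D5:**
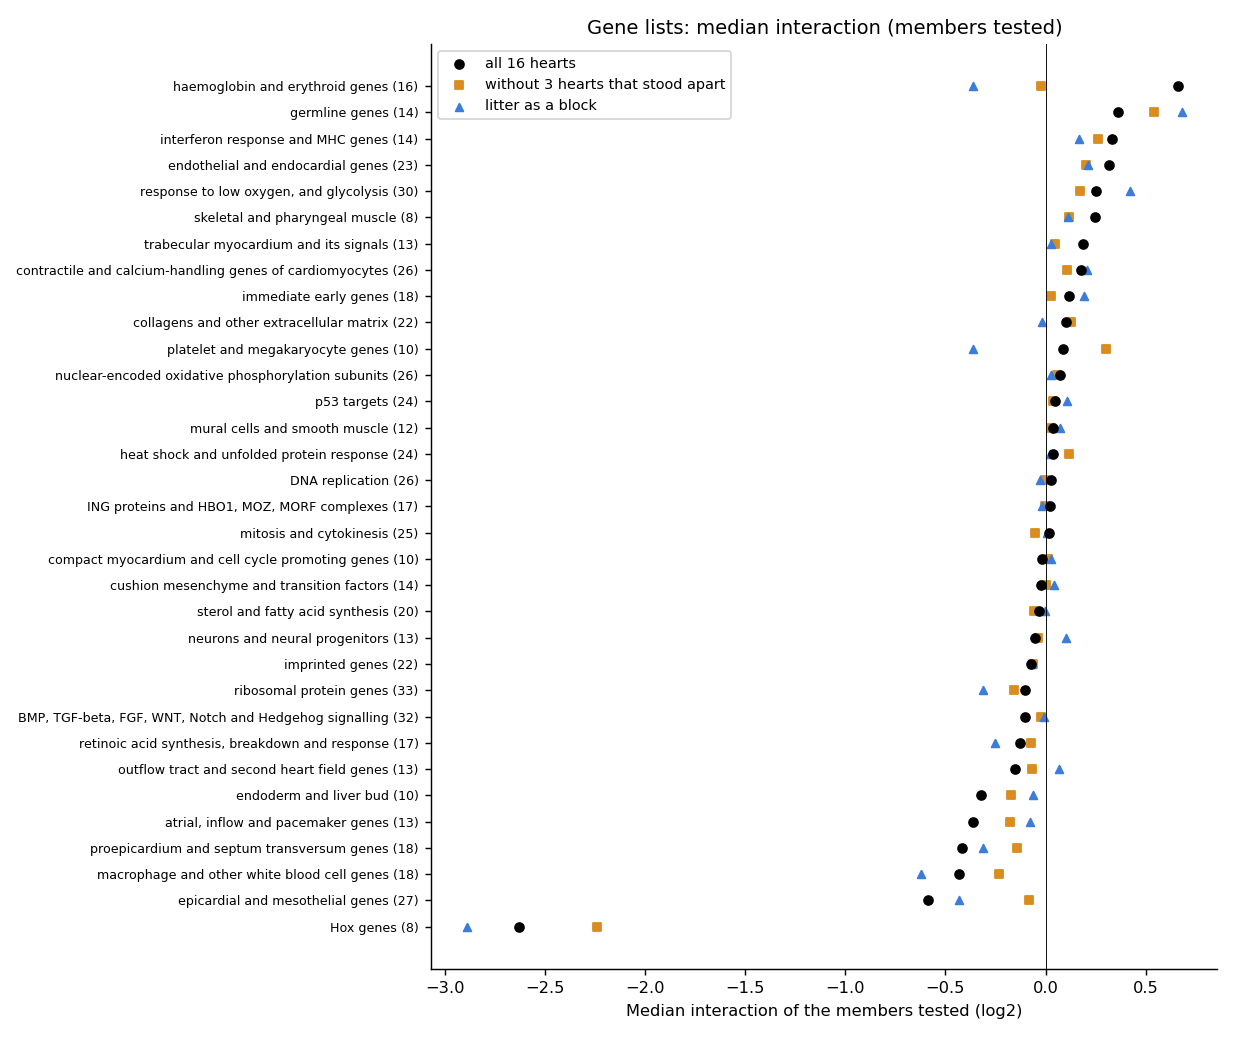
Median interaction on the log2 scale of each gene list except the sex-linked one, with the number of members tested in brackets. Black points show all 16 hearts, orange squares the fit without the 3 hearts that stood apart and blue triangles the fit with litter as a block; the Hox genes lie between -2.89 and -2.24 in the 3 fits, while erythroid genes go from 0.662 to -0.025 and -0.361.

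The width of the intervals sets what could be seen. The median distance from the interaction to either bound of its 95% interval was 0.364 over all genes and 0.281 over the 10207 genes with a mean of at least 10 CPM. In those 10207 genes, 16 (0.157%) had an interaction beyond 1 in either direction on the log2 scale. An adjusted p over the threshold does not show that a gene was additive.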

How the data were processed

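RNA from 16 embryonic hearts was sequenced with stranded libraries, per the labels. What the authors deposited were raw, unscaled counts for each gene, and the 16 deposited tables of single hearts were equal to the series table. The deposited gene length (other) was not used. Per the submitters' processing notes, bcl2fastq, featureCounts and the mm10 build were used (versions not given), and the aligner is not given in the sources used here. Of 27179 gene IDs, 25275 (93.0%) matched a symbol in RefSeq (GRCm38.p6).

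edgeR 4.0.16 in R 4.3.3 kept 15785 genes with 99.96% of the reads. A quasi-likelihood model of 4 group means was fitted to all 16 hearts with TMM scaling (factors 0.967 to 1.08) and no robust dispersion, with calls at an adjusted p under 0.05 (Benjamini-Hochberg, all genes). The biological coefficient of variation was 0.159 with 12 residual degrees of freedom. Hearts of 1 genotype differed beyond counting error (chi-square per degree of freedom 6.68 to 110). The model was tested on simulated data.

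The members, the gene lists and the tests were chosen with earlier results of these data known. Named genes were Ing4, Ing5, the 10 genes of smallest p in each direction (mean of at least 1 CPM, no predicted or sex-linked genes), up to 8 additive genes, 8 genes beyond additivity and 8 of each reversal set, and up to 3 members of each of 34 lists, some of which are not reported here. The 9 genes of opposite sign, the values of further list members and the calls of other tools were added after their values were seen. Alternatives were DESeq2 1.42.0 (size factors, Wald test), limma 3.58.1 (voom, quality weights, linear scale), other filters, litter or replicate number as a block, covariates for Y-linked and haemoglobin genes, and leaving out hearts. A robust dispersion and a fit without the 2 hearts of lowest quality weight were added after seeing the data.

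Same-numbered hearts of different genotypes deviated together above a correlation of 0.1 in 4 of 24 pairs (median 0.0197), so the numbers were not taken as pairs.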

Additional observations from a re-analysis of the deposited data

Results flagged for a closer look

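Within the 4 hearts of a genotype, a heart was marked where its distance to the nearest other heart was large against the range of the group. Of 144 groups of 4 (36 genes), 9 were marked (6.25%), and chance marks about 1 in 20 (5%). Hearts high in their group were Ing4+/- Ing5-/- replicate 4 for Slc39a10 (135 CPM, others 106 to 107), and Ing4+/- Ing5-/- replicate 2 for Ing5 (25.1, others 19.2 to 19.9) and Clybl (47.8, others 44.9 to 45.3). Ing4+/- replicate 2 was high for Notch4 (23 CPM, others 20 to 20.5). Ing5-/- replicate 3 was high for Dpp6 (5.19 CPM, others 3.58 to 3.63) and the transcribed pseudogene E130201H02Rik (9.36, others 7.62 to 7.84). It was low for Iho1, a meiotic recombination gene (2.18 CPM, others 2.9 to 3.02). Ing5-/- replicate 1 was high for Hoxa5 (8 CPM, others 0.317 to 1.18). Wild-type replicate 2 was low for Ing4 (28.2 CPM, others 42.6 to 44.4), the targeted gene itself.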

How the results depend on the processing

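The interaction calls numbered 0 in edgeR, 7 with DESeq2's Wald test, 1 with limma-voom with quality weights and 0 to 1 when each heart was left out (1 without Ing4+/- replicate 4, Cdk2ap1 both times). Every other alternative, a threshold of 0.10 included, called 0. Genes at an unadjusted p under 0.05 numbered 280 with litter as a block, 285 with litter and the Y-linked level, and 721 to 1428 when each heart was left out, against 952. The litter fits estimate more terms from the same hearts, and litter and genotype are partly confounded. The parts of these in the lower counts cannot be told apart, and the cause was not tested. Among the genes that differed between Ing4+/- Ing5-/- and wild-type hearts, the more than additive ones numbered 22 with litter as a block, against 35, and over all alternatives the less than additive ones numbered 0 to 4 and the opposite ones 1 to 8. The sign of a named gene turned once: Fcrls, a macrophage gene at -1.78, stood at 0.1786 on the linear scale (limma unadjusted p = 0.725). Replicate numbers shared by the genotypes did not pair the hearts, and the replicate block called 0 genes, with 934 at an unadjusted p under 0.05. Low counts limit Shisa3 and the Hox genes, among others.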
